A study of Mus musculus with 4 samples.

Results

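Myc and the MAX network are the genes of the MYC transcription factors, of their shared partner MAX and of the proteins that compete with MYC for MAX. The set was given by symbol as Myc, Mycn, Mycl, Max, Mxd1, Mxd3, Mxd4, Mxi1, Mnt and Mga. All 10 symbols were found once each among the 55359 mouse genes of the deposited table. The set was selected on FPKM values of these same libraries, in which Myc varied, so its levels are a description and no test is made on them.

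MYC proteins bind DNA as a pair with MAX, mainly at the E-box sequence CACGTG, and activate genes of ribosome production, metabolism and cell division. MXD proteins, MXI1 and MNT pair with the same MAX, bind the same sequence and recruit SIN3 and histone deacetylases, which repress transcription. MGA pairs with MAX inside a Polycomb complex, PRC1.6, which silences germ cell genes in embryonic stem cells. MXD genes are commonly raised, and Myc lowered, when cells stop dividing and differentiate.

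Poly(A) RNA of 4 libraries was sequenced, called 01, 02, 21 and 22 after their titles. All 4 are labelled as female germ line stem cells from the mouse ovary, in medium with the growth factors LIF, GDNF, bFGF and EGF. The design text speaks of cells given celastrol, a plant triterpenoid, and of control cells at 12 h, but no label says which library is which. It also speaks of triplicates, which the 4 libraries analysed here do not fill for both conditions, and nothing says whether they came from separate cultures. Values are therefore given per library, in the order 01, 02, 21 and 22, with no comparison of treatments and no replicate error.

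The libraries held 12339636 to 13039541 counts. The mean chi-square per gene between libraries, which is 1 for sampling noise alone, was 3.21 between 01 and 02, 3.03 between 21 and 22, and 18.2 to 19.6 in the other 4 pairs. Germ cell markers, from a list not limited to germ line stem cells, were near 0. None of the 10 reached 1 FPKM in any library, as held for 42457 of all 55359 genes. Their summed level was 0.29 to 0.44 FPKM. Dppa3, Prdm14, Nanos3, Figla and Sycp3 had no count, as held for 31230 of all genes. FPKM is the count scaled to exonic length and library depth, and a level of 1 FPKM is taken here as detection.

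For 9 of the 10 members RefSeq (GRCm38.p6) gave promoter windows of 300 bases, 250 before and 50 after a start of transcription, and Myc had no entry. The E-box CACGTG, which reads the same on both strands, was present once in the windows of Max, Mxd4 and Mnt, and in 7.15% of all 32851 windows. These windows are shown because the network acts through that sequence, with the E-box in capitals, 5′ to 3′ on the strand of the gene. The window of Mxd1 is shown because Mxd1 varied most among the genes of the MYC antagonists. Its capitals mark the GC box GGGCGG, found 6 times on the strand shown or the other, in 5 separate runs since neighbours overlapped once.
Max, chr12:76962199-76962498, minus strand: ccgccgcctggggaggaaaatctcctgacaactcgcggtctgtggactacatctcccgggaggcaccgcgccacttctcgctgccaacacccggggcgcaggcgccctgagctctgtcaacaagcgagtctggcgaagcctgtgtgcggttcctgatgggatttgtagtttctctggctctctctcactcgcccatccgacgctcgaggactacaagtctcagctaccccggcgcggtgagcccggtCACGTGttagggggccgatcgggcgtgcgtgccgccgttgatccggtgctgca
Mxd4, chr5:34187661-34187960, minus strand: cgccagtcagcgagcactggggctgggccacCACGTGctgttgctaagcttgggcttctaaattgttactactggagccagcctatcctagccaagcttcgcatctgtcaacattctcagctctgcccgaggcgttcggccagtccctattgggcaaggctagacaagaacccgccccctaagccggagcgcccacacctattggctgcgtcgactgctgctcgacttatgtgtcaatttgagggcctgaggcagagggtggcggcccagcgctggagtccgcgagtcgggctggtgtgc
Mnt, chr11:74830674-74830973, plus strand: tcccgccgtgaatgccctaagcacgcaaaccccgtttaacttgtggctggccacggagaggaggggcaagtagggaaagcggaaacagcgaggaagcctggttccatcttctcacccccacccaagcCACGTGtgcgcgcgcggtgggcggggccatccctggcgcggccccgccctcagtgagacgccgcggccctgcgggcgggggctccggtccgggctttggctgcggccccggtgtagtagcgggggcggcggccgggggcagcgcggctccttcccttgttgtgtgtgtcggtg
Mxd1, chr6:86669110-86669409, minus strand: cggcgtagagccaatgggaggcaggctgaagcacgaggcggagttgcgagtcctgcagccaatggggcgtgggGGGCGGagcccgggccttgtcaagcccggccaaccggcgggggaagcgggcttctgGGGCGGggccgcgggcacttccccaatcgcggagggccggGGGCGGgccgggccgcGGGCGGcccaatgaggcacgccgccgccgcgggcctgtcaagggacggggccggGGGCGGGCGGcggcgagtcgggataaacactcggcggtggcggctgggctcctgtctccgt

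The E-box began 3 bases before the start of Max, 219 before that of Mxd4 and 123 before that of Mnt, and none of these overlapped a GC box. The GC box, searched on both strands, was in at least one window of 8 members, all except Max, and in 35.7% of all windows. The antioxidant response element TGACNNNGC was in windows of 5 members (Max, Mga, Mxd1, Mxd3 and Mxi1) and in 12.4% of all windows. Members are counted by a match in any of their windows, and Mxi1 has several, while the shares count windows, so the units differ. The E2F motif TTTCGCGC was in the window of Mycn alone among members and in 0.323% of all windows. A match describes the letters of a window and says nothing of binding. The window positions are in GRCm38.p6 and do not match the gene positions of the deposited table given below. For example, Mnt, on the plus strand, starts at 74721746 there, while its window spans 74830674 to 74830973. Window and gene positions should therefore not be set side by side.

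Myc was the most abundant member in every library, at 113 FPKM in library 01, 119 in library 02, 47.1 in library 21 and 46.7 in library 22. These levels came from 3799, 4226, 1586 and 1631 counts. Libraries 01 and 02 were high and libraries 21 and 22 low, with no overlap of their Poisson 95% intervals, which were 110 to 117, 116 to 123, 44.8 to 49.5 and 44.5 to 49.0 FPKM. In RNA from many cells, fewer cells that express a gene and less RNA per cell cannot be told apart. The gene lies on chromosome 15, 61857240 to 61862223 on the plus strand (ENSMUSG00000022346), in coordinates of the deposited table, whose build is not given in the sources used here.

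The highest library of Myc, 02, was 2.55 times the lowest, 22, with an exact binomial 95% interval of 2.41 to 2.71. Between 02 and 01 the ratio was 1.05 (1.01 to 1.10), and between 22 and 21 it was 0.991 (0.925 to 1.06). Across the remaining pairs, 21 and 22 over 01 and 02, it was 0.392 to 0.416. By FPKM, Myc ranked 399 and 365 among all genes in libraries 01 and 02, and 1236 and 1234 in libraries 21 and 22.

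The other MYC genes were near the counting floor. Mycn (chromosome 12, 12986094 to 12991915, minus strand), known from the developing nervous system, had 6, 3, 2 and 3 counts, at most 0.15 FPKM. Mycl (chromosome 4, 122889445 to 122896278, plus strand) had 2, 10, 12 and 20 counts, which is 0.04, 0.19, 0.24 and 0.39 FPKM. Library 22 was highest and library 01 lowest for Mycl, with a ratio of 9.6 and an interval of 2.33 to 84.7, so the size of that difference is poorly known. Myc thus made up nearly all of the summed MYC gene level, which was 114, 120, 47.4 and 47.2 FPKM.

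Max (ENSMUSG00000059436, chromosome 12, 76984043 to 77008975, minus strand) was the next most abundant member and was nearly even. It stood at 28.7, 28.7, 27.8 and 26.7 FPKM from 1275, 1347, 1237 and 1232 counts. Its highest and lowest libraries, 01 and 22, had overlapping intervals and a ratio of 1.08 (0.996 to 1.17). The ratio of Myc to Max, per length, was 3.95 (3.702 to 4.21) in library 01 and 4.15 (3.91 to 4.42) in library 02. In libraries 21 and 22 it was 1.70 (1.58 to 1.83) and 1.75 (1.63 to 1.89). In every library Myc RNA exceeded Max RNA, by a smaller factor in 21 and 22.

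Among the genes of MYC antagonists, Mxd1 differed most between libraries, with 21 and 22 above 01 and 02. Mxd3, Mxd4 and Mnt also had higher values in 21 and 22, by smaller factors. For Mxd3 the intervals of the highest and lowest library overlapped. For Mnt those of 02 and 22 were apart, but those of 01 overlapped both 21 and 22, and those of 02 overlapped 21. Mxd1 (ENSMUSG00000001156, chromosome 6, 86624024 to 86646143, minus strand), also called Mad1 and known to be induced during differentiation, was at 2.17, 1.93, 6.13 and 6 FPKM. The counts were 189, 178, 537 and 545, so libraries 21 and 22 were high and 01 and 02 low. The intervals of 1.87 to 2.50 and 1.66 to 2.24 FPKM in 01 and 02 lay below those of 5.62 to 6.67 and 5.504 to 6.52 FPKM in 21 and 22. The highest library, 21, was 3.18 times the lowest, 02 (2.68 to 3.78). Between 02 and 01 the ratio was 0.891 (0.722 to 1.0996), and between 22 and 21 it was 0.978 (0.867 to 1.10). Per length, Myc RNA exceeded Mxd1 RNA 52.3 and 61.8 times in libraries 01 and 02, and 7.69 and 7.79 times in libraries 21 and 22.

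**Figure D1:**
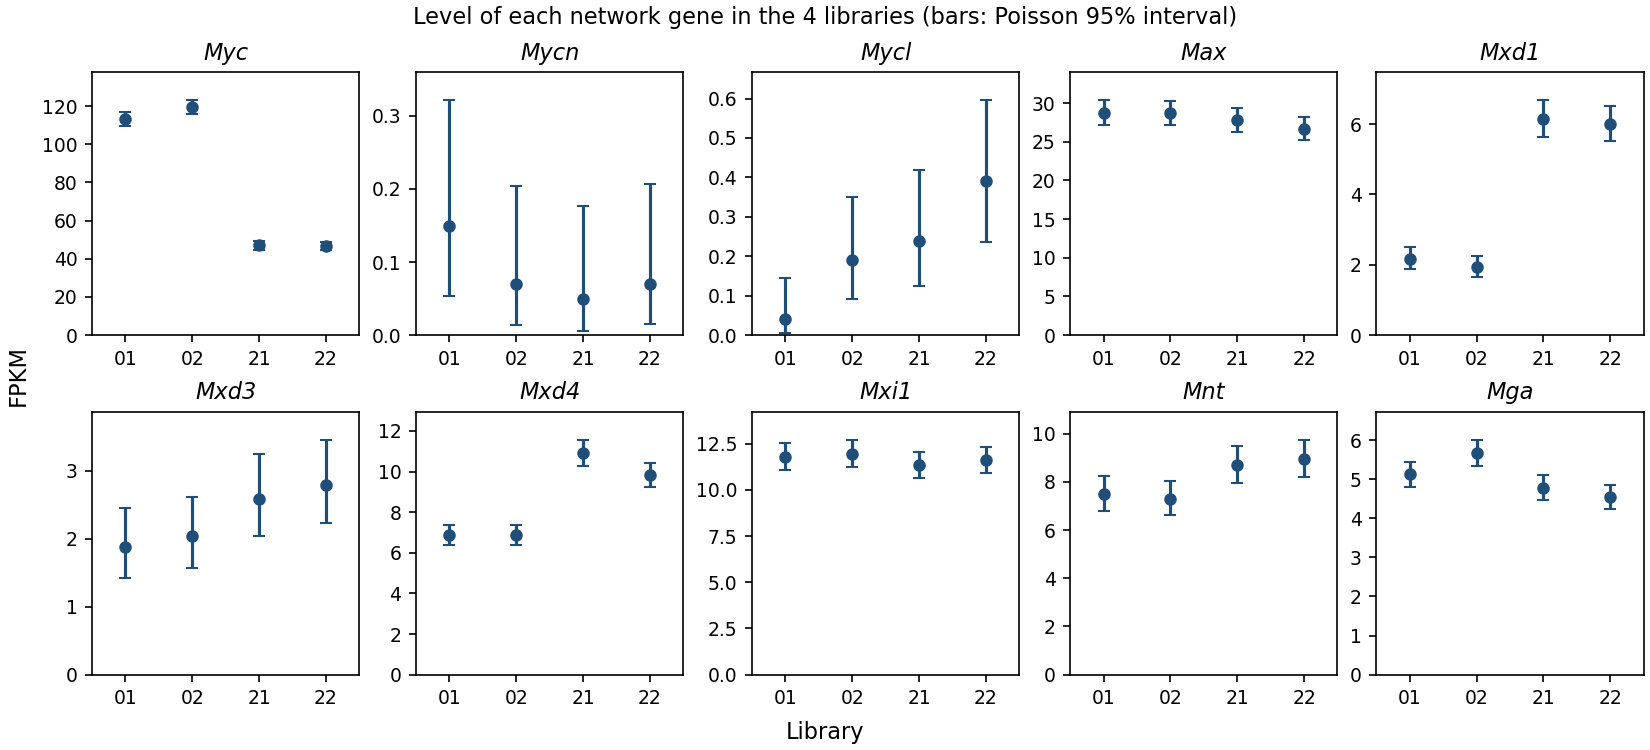
FPKM (y axis, linear from 0, own scale per panel) of the 10 network genes in the 4 libraries (x axis), with Poisson 95% intervals as bars. Myc is high in libraries 01 and 02 (113 and 119 FPKM), Mxd1 in libraries 21 and 22 (6.13 and 6 FPKM), and Max and Mxi1 are nearly even.

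Mxd4 (ENSMUSG00000037235, chromosome 5, 34331227 to 34345064, minus strand), another gene of the MXD family, was at 6.86, 6.86, 10.9 and 9.82 FPKM from 718, 759, 1146 and 1070 counts. Libraries 21 and 22 were above 01 and 02 without overlap of intervals, as for Mxd1. The ratio of library 21 to library 01 was 1.59 (1.45 to 1.75), and that of 22 to 21 was 0.900 (0.827 to 0.979).

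Mxd3 (ENSMUSG00000021485, chromosome 13, 55472981 to 55477636, minus strand), the MXD gene known for expression in dividing cells, was low at 1.88, 2.04, 2.59 and 2.79 FPKM. With 55, 63, 76 and 85 counts, the intervals of its highest and lowest libraries, 22 and 01, overlapped, and their ratio was 1.48 (1.04 to 2.12). In the table its span overlaps Prelid1, a gene on the opposite strand with 3579 to 4282 counts. Since no label names a step that keeps the strand, how many reads of the overlap belong to either gene is not known.

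Mxi1 (ENSMUSG00000025025, chromosome 19, 53298949 to 53364241, plus strand), also called Mxd2 and a gene of the same family, was the most even member that was detected. It was at 11.8, 12.0, 11.3 and 11.6 FPKM, and the ratio of library 02 to library 21 was 1.06 (0.967 to 1.15), with overlapping intervals. The MXD family therefore did not vary as one, since the highest to lowest ratio was 3.18 for Mxd1 and 1.06 for Mxi1, with intervals that did not overlap.

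Mnt (ENSMUSG00000000282, chromosome 11, 74721746 to 74736551, plus strand), whose product is expressed in most cells and opposes MYC in dividing and resting cells alike, was at 7.5, 7.31, 8.69 and 8.95 FPKM. Library 22 was 1.22 times library 02 (1.08 to 1.39). Mga (ENSMUSG00000033943, chromosome 2, 119727709 to 119800062, plus strand) was at 5.12, 5.66, 4.78 and 4.54 FPKM, and library 02 was 1.25 times library 22 (1.14 to 1.36). Both differences were small and larger than the counting error alone. That error is a narrow measure, since the mean chi-square per gene was 3.21 between 01 and 02 and 3.03 between 21 and 22. Mga also differed between 02 and 01, with a ratio of 1.11 (1.01 to 1.21). Library 02 was the lowest for Mnt and the highest for Mga.

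Within each library the order of levels began with Myc, Max and Mxi1. In libraries 01 and 02 these were followed by Mnt, Mxd4 and Mga, with Mxd1 and Mxd3 lowest among the detected members. The intervals of Mnt and Mxd4, and those of Mxd1 and Mxd3, overlapped there. In libraries 21 and 22 Mxd4 stood above Mnt and Mxd1 stood above Mga. In library 21 Mxi1 and Mxd4 overlapped, and in library 22 Mxd4 and Mnt overlapped. The intervals of Mxd1 and Mga did not overlap in any library, so their order was reversed between 01 and 02 on the one hand and 21 and 22 on the other by more than the counting error.

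The sum over the network, per length, was 178, 184, 120 and 118 FPKM. The MYC genes made up 63.9%, 64.96%, 39.7% and 40.1% of it, and Max 16.2%, 15.6%, 23.2% and 22.7%. The genes Mxd1, Mxd3, Mxd4, Mxi1, Mnt and Mga together made up 19.9%, 19.4%, 37.1% and 37.2%, from summed levels of 35.3, 35.8, 44.4 and 43.7 FPKM. In libraries 21 and 22 the RNA of the MYC genes and that of the antagonist genes were nearly equal per length, 47.4 against 44.4 and 47.2 against 43.7 FPKM. By counts not divided by length they were not, with 1600 for the MYC genes against 4122 for the antagonist genes in library 21 and 1654 against 4144 in library 22. The share of Myc alone in the network was 39.4% and 39.7% by FPKM in these libraries, and 22.8% and 23.2% by such counts. These are shares of RNA, and protein levels were not measured.

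**Figure D2:**
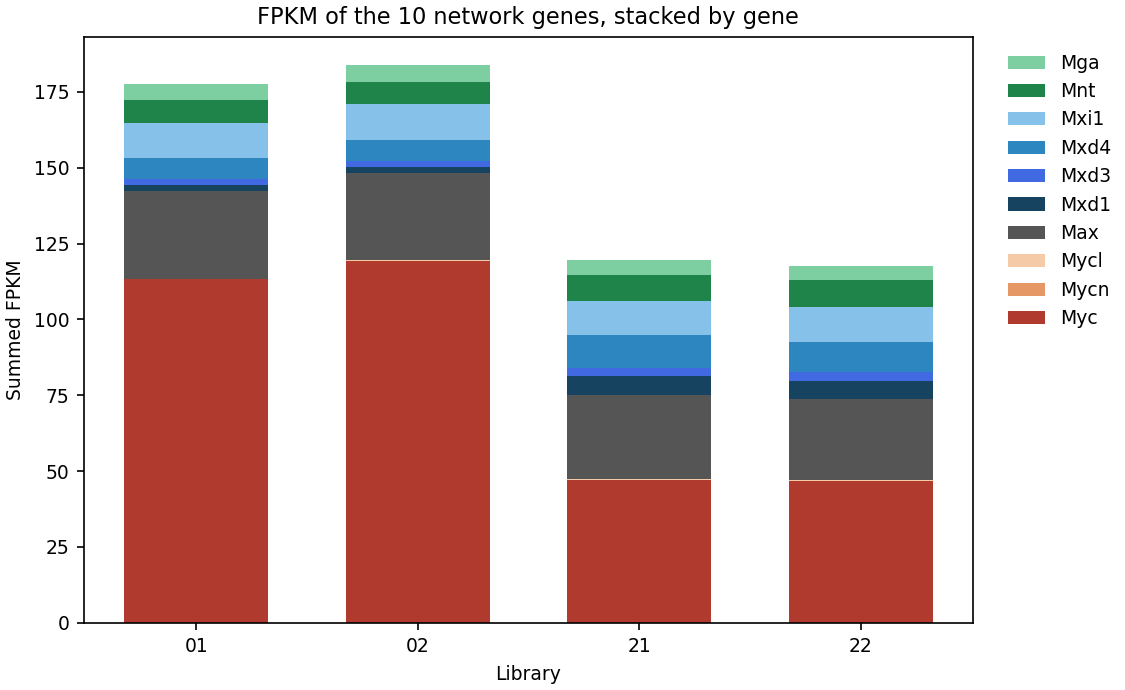
Summed FPKM (y axis) of the 10 network genes in each library (x axis), stacked by gene. The total is 178 and 184 FPKM in libraries 01 and 02 and 120 and 118 FPKM in libraries 21 and 22, and the red segment of Myc differs most.

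To set the members beside other genes, the log2 range was used, the highest log2(FPKM + 1) of the 4 libraries minus the lowest, which understates differences of genes with low levels. It covers the 11874 genes whose mean reached 1 FPKM, of which 8 are members. The median range was 0.33 over these 8 members and 0.27 over all 11874 genes. Myc had a range of 1.33, wider than in 98.1% of these genes, and Mxd1 one of 1.28, wider than in 98.0%. These 2 members of 8 had a range of 1 or more, and 3.61% of all genes compared did. The set was proposed with the range of Myc known, so nothing is read from that count.

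The range was 0.60 for Mxd4, 0.40 for Mxd3, 0.27 for Mga, 0.26 for Mnt, 0.10 for Max and 0.07 for Mxi1. Of all genes compared, 7.92% had a smaller range than Max and 3.28% a smaller one than Mxi1. For 5 of the 8 members (Myc, Mxd1, Mxd4, Mnt and Mga) the Poisson intervals of the highest and lowest library did not overlap, and the same held for 56.9% of all genes compared. Mycn and Mycl did not reach a mean of 1 FPKM and are not in these counts.

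**Figure D3:**
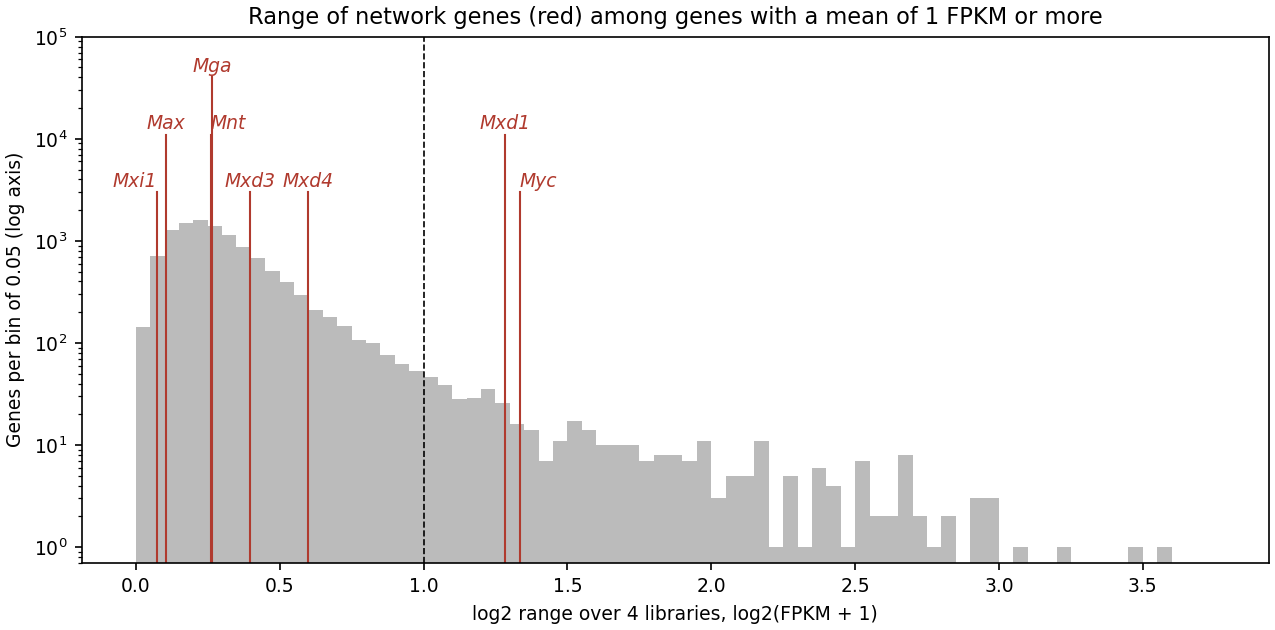
Number of genes (y axis, log axis) by log2 range over the 4 libraries (x axis) for the 11874 genes whose mean reached 1 FPKM, with the 8 members at that level as red lines and a range of 1 as the dashed line. Myc (1.33) and Mxd1 (1.28) lie beyond it, and the other 6 members lie at 0.60 or less.

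The MLX branch of the network, which senses sugars through MLXIP and MLXIPL, varied little. Mlx was at 21.5, 20.0, 21.9 and 19.3 FPKM and Mlxip at 5.19, 6.11, 6.26 and 6.21 FPKM. Mlxipl, the carbohydrate-responsive factor of liver and fat, had 3, 0, 4 and 2 counts, and 3 counts are worth at most 0.0439 FPKM.

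The partners through which network proteins act were detected throughout, as were 11107 of all 55359 genes. All 14 genes listed as MYC coactivators or partners were detected throughout. None had a range of 1 or more, where 3.61% of all genes compared did. Their median range was 0.20, against 0.27 over all genes compared. The helicase genes Ruvbl2, at 107, 102, 114 and 111 FPKM, and Ruvbl1, at 62.0, 68.8, 70.1 and 70.7 FPKM, led these 14. Ep400, a chromatin remodeller gene, had their widest range, 0.43, at 8.95, 10.8, 12.4 and 10.7 FPKM. All 8 corepressor genes used by MXD and MNT proteins were detected as well, with a median range of 0.20. Their most abundant members were Sap30, a SIN3 complex subunit gene, at 61.2, 55.9, 59.1 and 64.9 FPKM, and Ncor1, at 38.4, 45.2, 36.8 and 38.4 FPKM with the widest range, 0.29.

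The other 9 genes of the PRC1.6 complex of MGA were detected in every library, as were 11107 of all 55359 genes. Their median range was 0.20, against 0.27 over all genes compared. Tfdp1, the partner of E2F factors, was at 77.4, 74.1, 60.4 and 60.5 FPKM, and Rnf2, a ubiquitin ligase gene of Polycomb complexes, at 29.5, 29.4, 32.1 and 31.6 FPKM. E2f6, the repressor gene of the E2F family, ranged most widely, by 0.58, at 5.9, 5.24, 3.79 and 3.6 FPKM. Libraries 01 and 02 were above 21 and 22 for both E2f6 and Tfdp1.

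Genes listed for control of the MYC protein, or of the Myc gene and its mRNA, were set beside all genes in the same way. Of all 55359 genes, 11107 were detected in every library. Of all genes compared, 3.61% had a range of 1 or more, and the median range was 0.27. For turnover of the MYC protein, all 10 listed genes were detected, none with a range of 1 or more, and the median range was 0.21. The kinase gene Aurka was at 26, 24.4, 22.4 and 22.3 FPKM, the ubiquitin ligase gene Huwe1 at 17.0, 21, 24.3 and 23.2 FPKM, and Stub1, another ligase gene, had the widest range, 0.54, at 19.3, 17.2, 25.4 and 22.7 FPKM. For binding of the Myc gene or mRNA, 10 of 12 listed genes were detected, none with a range of 1 or more, and the median range was 0.28. Ybx1 was at 658, 633, 725 and 740.5 FPKM and Hnrnpk at 78.6, 76.6, 87.8 and 93.8 FPKM. Hnrnpd, whose product AUF1 binds AU-rich elements of unstable mRNAs, had the widest range, 0.45, at 54.9, 52.1, 69.8 and 71.3 FPKM.

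Pvt1, a long noncoding RNA gene that starts 47612 bases beyond the end of Myc on the same strand, was at 4.07, 3.91, 3.4 and 3.11 FPKM. Its highest library, 01, was 1.31 times its lowest, 22 (1.11 to 1.53), an interval that lies below that of Myc. The ratio of Myc to Pvt1, per length, was 27.9, 30.5, 13.8 and 15.0.

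The textbook genes that MYC activates had ranges below 1, with Tfrc as the exception. Their levels differed widely, and Tert, at most 0.66 FPKM, was not detected. Of 56 such genes in 3 lists, 55 had a mean of 1 FPKM or more, as did 11874 of all 55359 genes. Of these 55, 1 had a range of 1 or more, where 3.61% of all genes compared did. The median range of the 55 was 0.22, against 0.27 over all genes compared. The highest library was 01 for 13 of the 55 genes, 02 for 8, 21 for 21 and 22 for 13, where over all genes compared it was 01 for 24.7%, 02 for 26.4%, 21 for 23.9% and 22 for 25.1%. The lowest was 01 for 13 of the 55, 02 for 22, 21 for 13 and 22 for 7, where over all genes compared it was 01 for 25.6%, 02 for 25.5%, 21 for 25.0% and 22 for 23.9%.

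Of the 21 ribosome production genes none had a range of 1 or more, against 3.61% of all genes compared. Npm1, the nucleolar chaperone gene, was at 685, 660.5, 714 and 761 FPKM and Ncl, the gene of nucleolin, at 152, 150.3, 173 and 187 FPKM. Rrp12, a gene for ribosomal RNA processing, had the widest range, 0.46, at 17.8, 17.9, 24.9 and 23.1 FPKM. For all 3, libraries 21 and 22 were above 01 and 02, but the list was mixed. The highest library was 01 for 5 of its genes, 02 for 1, 21 for 8 and 22 for 7. Over all genes compared those shares were 24.7%, 26.4%, 23.9% and 25.1%. Ppan, a gene of ribosome production picked after seeing its values, had nearly as wide a range, 0.44, in the other direction, at 18.7, 18.7, 13.5 and 13.5 FPKM. Nop16, Gnl3, Polr1b and Ubtf, picked in the same way, also had higher values in 01 and 02 than in 21 and 22, for Gnl3 by as little as 23.1 FPKM in 02 against 22.9 in 22.

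Among the 16 metabolism genes, Tfrc, which encodes the transferrin receptor of iron uptake, was at 451, 453, 118 and 124 FPKM. Its library 02 was 3.84 times its library 21 (3.75 to 3.93), a wider gap than the 2.55 of Myc between 02 and 22. Like Myc, Tfrc was higher in 01 and 02. Ldha, the lactate dehydrogenase gene, was at 575, 544, 637 and 644 FPKM and Pkm, the pyruvate kinase gene, at 621, 618, 575 and 568 FPKM. Odc1, the polyamine synthesis gene often used as a MYC target, was at 117, 114, 135 and 132 FPKM, and Cad, of pyrimidine synthesis, at 52.2, 55.4, 66.4 and 63.2 FPKM. The choice of Odc1 and Cad was made after seeing their values.

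Where 3.61% of all genes compared had a range of 1 or more, none of the 18 detected genes of growth and the cell cycle did. The mitochondrial chaperonin genes Hspd1, at 752, 725, 657 and 680.1 FPKM, and Hspe1, at 435, 425, 359 and 352 FPKM, led them. E2f2 had the widest range, 0.52, at 6.18, 5.09, 4 and 4.21 FPKM. Ccnd2, a cyclin gene named after its values were seen, was at 40.5, 46.5, 32.7 and 33.3 FPKM.

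Genes that MYC is known to repress had a median range of 0.41, against 0.27 over all genes compared. None of the 9 compared had a range of 1 or more, where 3.61% of all genes compared did. Cdkn1a, of the cell cycle inhibitor p21, was at 98.3, 90.6, 74.5 and 72.5 FPKM, and Gadd45g, a stress gene, had the widest range, 0.88, at 40.8, 38.6, 23.8 and 21.8 FPKM. For both, libraries 01 and 02 were above 21 and 22, as for Myc. Ndrg1 was at 42.3, 41.1, 44.8 and 45.2 FPKM. Cdkn1b, of the inhibitor p27 and named after its values were seen, was at 18.1, 17.7, 23.4 and 23.9 FPKM.

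**Figure D4:**
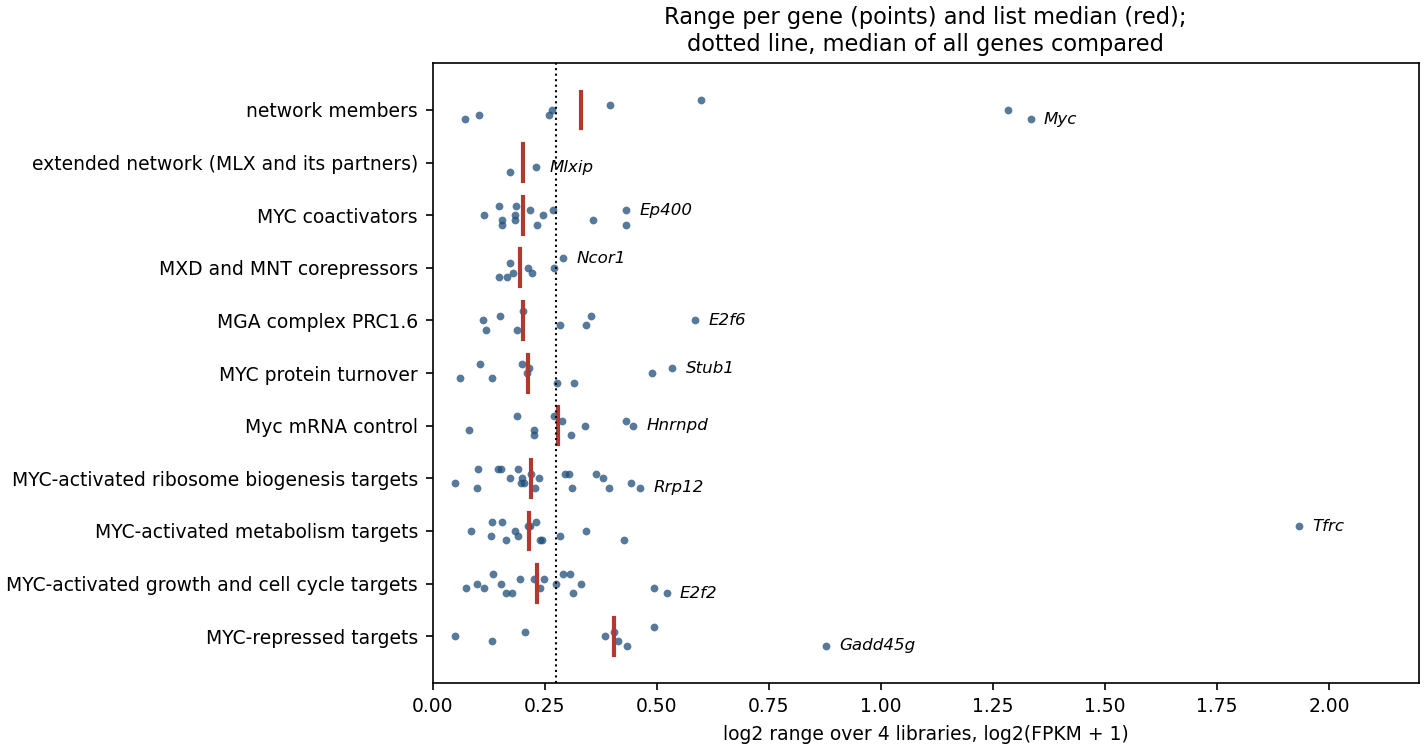
Log2 range over the 4 libraries (x axis) of each gene with a mean of 1 FPKM or more (points), by list (rows), with the list median in red and the median of all genes compared, 0.27, as a dotted line. The gene with the widest range is named in each row, and Myc, Mxd1 (the unlabelled point beside it) and Tfrc lie above 1.

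The genes whose profile over the 4 libraries was nearest to that of Myc were found by the Euclidean distance between centred log2(FPKM + 1) values, among the 7730 genes whose mean reached 5 FPKM. The nearest was Angptl6, an angiopoietin-like gene, at 16.1, 16.1, 6.12 and 6.1 FPKM and a distance of 0.0601, where the median distance of all these genes was 1.32. Adgre1, of the surface antigen F4/80, followed at 218, 220.5, 97.7 and 96.3 FPKM. The others were Prl2c3 of the proliferin family, the proton channel gene Otop1, the G protein regulator gene Rgs16, the reductase gene Ptgr1, the serotonin synthesis gene Tph1 and the actin-binding protein gene Coro2a, at distances of 0.166 to 0.210. Prl2c3 has close paralogs whose reads can be misassigned, so its value is uncertain. Among the members, Mga ranked nearest to Myc, at 1448, and Max ranked 2428. The profile of Mxd4 ranked 7618 of 7730. Mxd1, with a mean below 5 FPKM, has no rank, and its distance was 2.51.

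**Figure D5:**
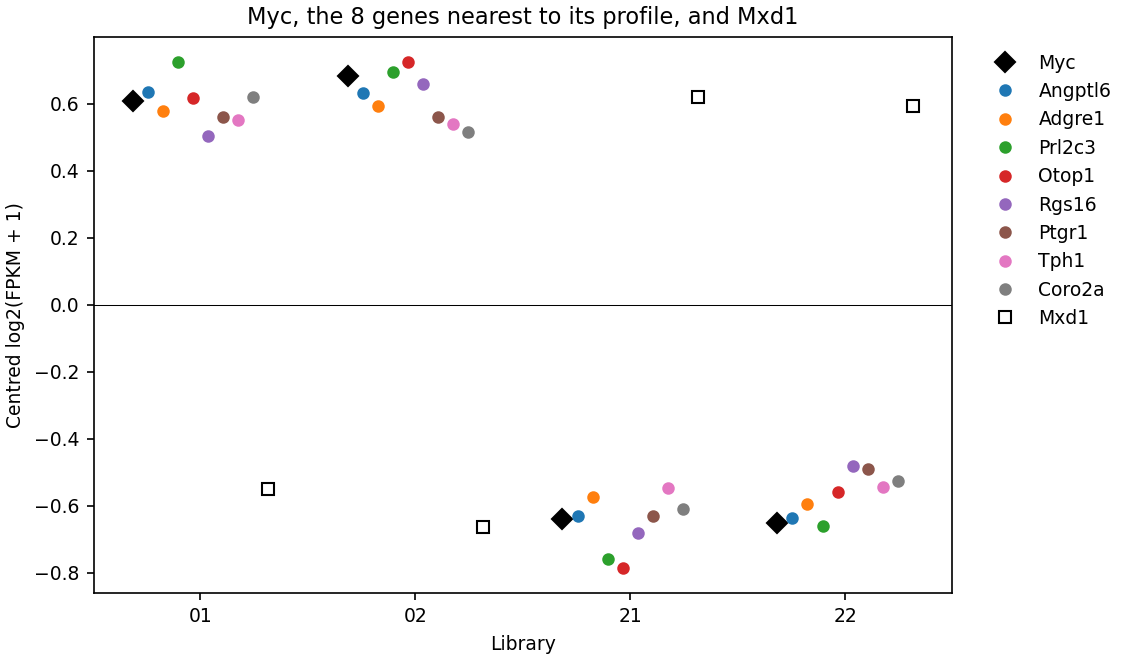
Centred log2(FPKM + 1) (y axis) in the 4 libraries (x axis) of Myc (black diamonds), the 8 genes with the nearest profiles (coloured circles) and Mxd1 (open squares). The first 9 genes are above 0 in libraries 01 and 02 and below 0 in libraries 21 and 22, and Mxd1 shows the opposite.

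Some markers of other cell types were higher in libraries 01 and 02, as Myc was, and others were not. Of all 55359 genes, 11107 were detected in every library. Of 9 macrophage markers, 4 (Adgre1, Cd68, Fcgr1 and Ptprc) were detected throughout. Of these, 3 had a range of 1 or more, as 3.61% of all genes compared did. The summed level of the list was 276, 279, 131 and 131 FPKM, most of it from Adgre1. C1qa had no count, Itgam was at most 0.02 FPKM, and Csf1r and Mrc1 were at most 0.15 FPKM. Lyz2 was higher in 21 and 22, at 0.62, 0.47, 1.23 and 1.06 FPKM from 10, 8, 20 and 18 counts. Of 10 mast cell markers, 3 were detected in every library (Kit, Cpa3 and Gata2), with a list sum of 565, 555, 462 and 482 FPKM, and Fcer1a, Mcpt4 and Tpsb2 had no count. Within that sum Kit, the stem cell factor receptor gene, had the widest range, 0.76, and was higher in 21 and 22, at 58.9, 64.6, 100.7 and 100.3 FPKM. Cpa3 and Gata2 were higher in 01 and 02, at 333, 325, 229 and 247 FPKM and at 173, 165, 131 and 135 FPKM. Of 9 markers of fibroblasts or feeder cells, 8 were detected throughout, with a list sum of 429, 426, 381 and 391 FPKM. Most of that sum came from Vim, at 341, 335, 296 and 306 FPKM. Col1a1 was at 28.2, 29.5, 25.9 and 27.3 FPKM. Twist1 had the widest range, 0.72, at 3.14, 3.58, 5.6 and 3.01 FPKM. Dcn, named after its values were seen, was higher in 21 and 22, at 20.3, 20.0, 23.1 and 24.1 FPKM. Pdgfra, named in the same way, was higher in 01 and 02, at 9.28, 10.5, 5.97 and 6.36 FPKM. The highest library was 01 for 3 of these 8 markers, 02 for 3, 21 for 1 and 22 for 1. None of 6 granulosa cell markers reached 1 FPKM in any library, as held for 42457 of all 55359 genes. The part of these cell types in the levels of Myc and Mxd1 was not tested.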

How the data were processed

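Poly(A) RNA of 4 libraries was sequenced as paired-end reads, per the labels' protocols. Counts per gene were taken as deposited by the authors, as whole numbers that are not normalised. FPKM per gene is the authors' own column, per the file headers, and the summed count of each library was returned from count, exonic size and FPKM within 0.0496% for genes above 10 FPKM. The submitters' processing notes name FastQC, HISAT2 and DESeq2 without saying what each did. The read counter, genome build and annotation of the deposited table are not known, but its positions of Max and Mnt do not match the GRCm38.p6 promoter windows.

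No label assigns a library to a treatment, so no group, test, mean or SD was made. Counts carry exact Poisson 95% intervals, ratios of 2 counts exact binomial 95% intervals, and the floor is 3 counts. Intervals cover counting error only, since PCR copies are not independent. The highest and lowest libraries were picked by level, so their ratio leans wide. Ranges used a pseudocount of 1 FPKM. TMM factors came from edgeR 4.0.16, and everything else from Python 3.11.15 with scipy 1.17.1.

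Members and lists were chosen with earlier results of these data known. The text names all members, the 2 genes with the highest median and the one with the widest range of each other list, Pvt1 and the 8 genes nearest to Myc, and says where a gene was named after its values were seen. Cell type markers and motif searches serve as descriptions. All 177 listed symbols were found. In GENCODE M21, which is not known to be the authors' annotation, every 100-base stretch of the members' transcripts was unique to its gene. On simulated Poisson counts, 1.28% of 11680 genes left unchanged reached a range of 1 or more. With a 3-fold change in 1 library 100% of 100 genes did, and with a 1.5-fold change 0% of 100. The libraries varied more than such counts, with a mean chi-square per gene of 3.21 between 01 and 02 and 3.03 between 21 and 22. The 1.28% therefore covers sampling noise only. Since these shares are not split by level, they do not show how genes as low as Mxd1 or Mxd3 would fare. The alternatives were other pseudocounts, scalings, filters and detection levels, counts in place of FPKM, and each library left out in turn.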

Additional observations from a re-analysis of the deposited data

How the results depend on the processing

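The highest and lowest library of each member stayed the same under median-of-ratios factors, TMM factors and an equal sum of FPKM, except that the highest library of Max became 02 under an equal sum of FPKM, and the lowest of Mxd4 became 02 under median-of-ratios and TMM factors. These scalings moved the median of all genes by at most 0.02 on the log2 scale. Myc and Mxd1 were the 2 members with a range of 1 or more under every scaling, with a pseudocount of 0.1 and without any single library, with ranges of 1.26 to 1.35 for Myc and 1.17 to 1.62 for Mxd1. Mycl, whose mean is under 1 FPKM and which is therefore not counted, had a range of 1.81 with a pseudocount of 0.1. The share of all genes with a range of 1 or more was 2.71% to 2.88% with 1 library left out, 6.99% with a pseudocount of 0.1, 1.203% among genes whose mean reached 5 FPKM and 1.64% with no filter on low values. At 2 FPKM 6 members were detected in every library, and at 0.5 FPKM 8 were. The share of Myc in the network was 63.8%, 64.8%, 39.4% and 39.7% by FPKM, and 45.05%, 45.8%, 22.8% and 23.2% by counts not divided by length, because Myc has a shorter exonic size than most members. Of the 8 genes nearest to Myc, 6 remained when genes down to a mean of 1 FPKM were ranked and 5 with a pseudocount of 0.1. Depth limits Mycn and Mycl, which had at most 20 counts in a library. No paired analysis was possible because the libraries have no groups.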

Other observations

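The E-box CACGTG was in the promoter windows of 15 of the 48 MYC-activated genes that had a window, which is 31.3%, and in those of 2187 of all 27025 genes with a window, which is 8.09%. They were 4 of 17 ribosome production genes, 4 of 14 metabolism genes and 7 of 17 growth and cell cycle genes, among them Cdk4, Eif4e, Ldha and Ran, all named after the search. The target lists come from textbook knowledge, in which an E-box can be part of why a gene is listed, so this share is a description. Over all genes compared, the highest library was 01 for 24.7%, 02 for 26.4%, 21 for 23.9% and 22 for 25.1%. The lowest was 01 for 25.6%, 02 for 25.5%, 21 for 25.0% and 22 for 23.9%. Of the 15 genes with an E-box, the highest library was 01 for 3, 02 for 1, 21 for 6 and 22 for 5. The lowest of these 15 was 01 for 4, 02 for 8, 21 for 3 and 22 for 0. The difference from all genes was not tested. As examples, Ldha was at 575, 544, 637 and 644 FPKM and Ran at 234, 226, 268 and 264.6 FPKM in libraries 01, 02, 21 and 22, both higher in 21 and 22, where Myc was lower. Hspd1, also among the 15, was at 752, 725, 657 and 680.1 FPKM, higher in 01 and 02, as Myc was.

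By Myc and Mxd1 the 4 libraries fell into 2 separate clusters, 01 with 02 and 21 with 22, at 113 and 119 against 47.1 and 46.7 FPKM for Myc, and at 2.17 and 1.93 against 6.13 and 6 FPKM for Mxd1. Over all genes, the mean chi-square per gene was 3.21 between 01 and 02 and 3.03 between 21 and 22, above the 1 of sampling noise, and at least 18.2 between libraries of different clusters. The labels do not say what separates them.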
